A study of Mus musculus with 9 samples.

Results

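The 7 genes described here encode proteins of the spindle assembly checkpoint or of its silencing: Mad2l1, Mad1l1, Bub1, Bub1b, Bub3, Ttk and Mad2l1bp. They were chosen by gene name, and all 7 were found among the 30153 genes of the deposited tables. The RNA sequenced came from pooled mouse oocytes at metaphase II (MII), which are ovulated eggs held in the second meiotic division. Every donor was a female of 4 weeks on a mixed genetic background with the genotype Sycp3CreERT2/+; Rosa26nT-nG/+, so the groups share the Cre allele and the reporter allele. Sycp3CreERT2 places a tamoxifen-dependent Cre recombinase under the meiotic gene Sycp3, and the reporter makes nuclear tdTomato before recombination and nuclear GFP after it. Females had received 5 IU PMSG and, 48 h later, 5 IU hCG. Eggs were taken 13 h after hCG, freed from their cumulus with hyaluronidase, and sorted manually under a fluorescence microscope into 3 groups named GFP High, GFP Low and RFP. Each group had 3 libraries, and each library came from a pool of eggs: 15 to 16 in GFP High, 49 to 57 in GFP Low and 87 to 100 in RFP. No source used here says whether the pools came from different females, so p-values measure the spread between these pools, and the tamoxifen schedule is not given in the sources used here.

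The checkpoint delays the separation of chromosomes until every kinetochore is attached to spindle microtubules. At an unattached kinetochore the kinase TTK (also called MPS1) phosphorylates the scaffold KNL1, which recruits BUB3 with BUB1 and BUBR1 (the product of Bub1b). MAD1 then turns MAD2 into its closed form, and MAD2, BUBR1, BUB3 and CDC20 form the mitotic checkpoint complex that inhibits the anaphase-promoting complex (APC/C). The product of Mad2l1bp, with the ATPase TRIP13, takes MAD2 out of that complex and so silences the signal. Oocytes are known for a checkpoint that is less stringent than that of somatic cells. A fully grown oocyte makes almost no new RNA, so its mRNAs are a store that is translated or degraded over time.

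Library totals lay between 19381677 and 27746256 counts. The reporter transcripts followed the labels. The level of eGFP was 35.8 to 43.8 CPM (counts per megaread of the library) in the GFP High pools. It was 14.5 to 23.9 in the GFP Low pools and at most 0.594 in the RFP pools. That of tdTomato was low throughout, at 1.71 to 3.57 CPM in the RFP pools. It was 0.767 to 1.26 in the GFP Low pools and at most 0.0895 in the GFP High pools. All 10 oocyte marker genes had at least 1 CPM in each of the 9 libraries. Their summed level was 8294 to 9467 CPM for GFP High, above every library of GFP Low (7692 to 8083) and RFP (7709 to 8003). Of the 12 cumulus and granulosa markers, none to 9 were at 0 counts in a library, and their summed level was 8.92 to 44.0 CPM for GFP High, 13.4 to 36.6 for GFP Low and 16.7 to 53.6 for RFP. The defining granulosa gene Foxl2 was at most 0.456 CPM in any library, whereas Cyp19a1 had 6.85 to 18.1 CPM. Tnfaip6, Ptx3, Inhba and Ptgs2 reached 10.9, 9.71, 8.26 and 7.38 CPM in their highest library. The rest of the list was at most 3.23 CPM (Cyp11a1). The 3 oviduct markers summed to at most 3.46 CPM, and of 5 blood markers only Ptprc was matched, at most 0.448 CPM. Complexity, as genes counted at least once, was lower in GFP High 1, 2 and 3 (17132, 14408 and 17482) than in every other library. It was 19982 to 22022 in GFP Low and 20792 to 21913 in RFP, so it cannot be told apart from group or pool size. GFP High 2 was the lowest library and had 9 of the 12 cumulus markers at 0.

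All 7 checkpoint transcripts were present in every library, and Bub1b was by far the most abundant. Levels of different genes were compared per length, as CPM divided by the deposited gene length in kilobases (RPKM). Bub1b stood at 285 ± 18.3 RPKM over the 9 libraries (mean ± SD), rank 119 among 12805 genes with a mean of at least 1 CPM. Ttk followed at 74.1 ± 3.30 RPKM, Mad1l1 at 45.3 ± 4.51 and Bub1 at 20.6 ± 1.74. Bub3 at 12.1 ± 1.57, Mad2l1 at 10.3 ± 0.908 and Mad2l1bp at 7.44 ± 2.12 RPKM closed the order. Each of the first 4 places was held by the same gene in all 9 libraries. Bub3 was above Mad2l1 in 8 of 9 libraries and Mad2l1 above Mad2l1bp in 8 of 9, and the ranges of both pairs overlapped, so these neighbours did not differ beyond their spread in every library. Bub1b took between 58.1% and 62.6% of the reads of the 7 genes, which together made up 0.190% to 0.217% of all reads.

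The order below Bub1b depended on the length assumed. The deposited length is 8390 bases for Mad2l1 and 7006 for Bub3, longer than any annotated coding transcript of these genes, which run from 1725 to 7557 and from 747 to 3414 bases. With the longest coding transcript as length the order was unchanged, with Bub1 at 26.2, Bub3 at 24.9 and Mad2l1 at 11.4 RPKM. With the shortest one Bub3 reached 113.8 RPKM, above Mad1l1 at 62.6, and Mad2l1 reached 50.1, above Bub1 at 26.2. Bub1b was the most abundant under each of the 3 lengths, at 332.1 RPKM for its single coding transcript, against at most 133.5 for Ttk.

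**Figure D1:**
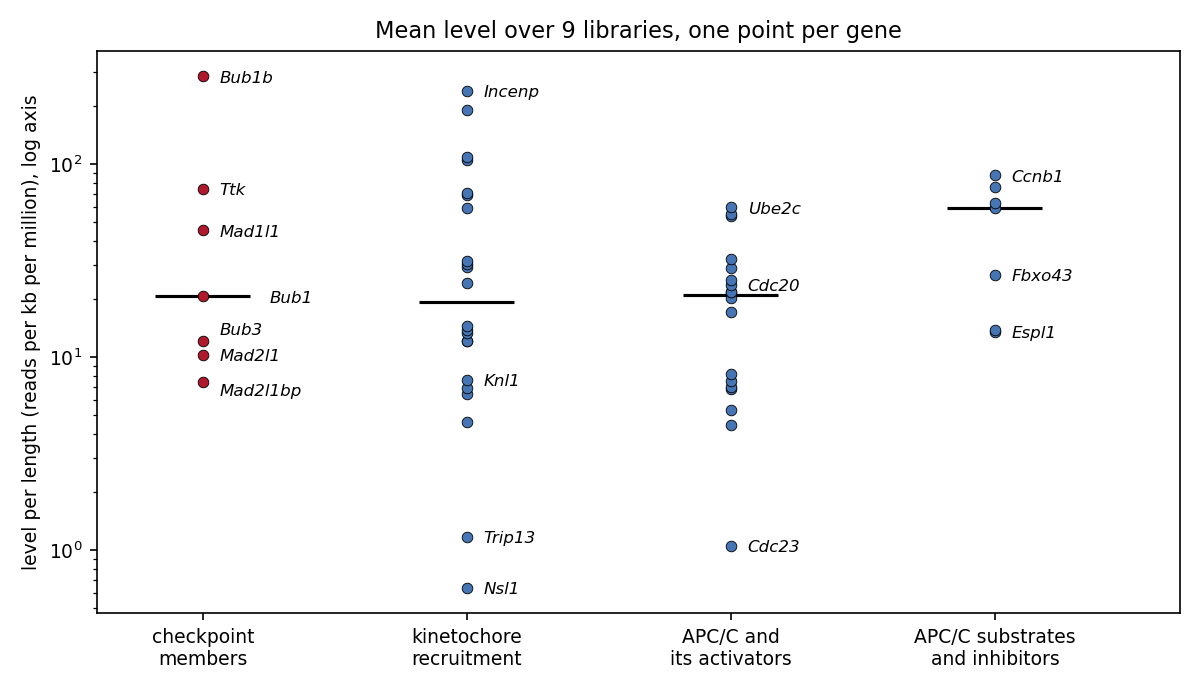
Mean level per length over the 9 libraries (RPKM, log axis), with 1 point per gene for the 7 checkpoint genes and for 3 lists of genes they act with; the horizontal bars are list medians. By the deposited lengths, Bub1b at 285 RPKM lies above every gene of the other lists, the nearest being Incenp at 239.5.

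The 3′ ends are shown because the poly-A tail, by which these libraries were captured, is set there. In growing and maturing oocytes the protein CPEB binds the cytoplasmic polyadenylation element (CPE) near the polyadenylation hexamer and controls tail length and translation. The last 100 bases of the GENCODE M21 transcripts (build GRCm38) were searched on the sense strand for the CPE letters TTTTAT or TTTTAAT, and the last 40 bases for the hexamers AATAAA or ATTAAA. Each window below is 30 bases of the sense strand, with CPE letters and hexamers in capitals.
Bub1b, chr2:118641556-118641585, plus strand: cactgtgtaTTTTATAATAAAatagttttt
Mad2l1 (short transcript), chr6:66540961-66540990, plus strand: ctgtAATAAAgaactcttaTTTTAATgttt
Ttk, chr9:83872349-83872378, plus strand: aagagctctgtaAATAAAgcgtcaccacag
Bub1, chr2:127801127-127801156, minus strand: atgtttaaaaaaAATAAAgcccatatgata
Mad2l1bp, chr17:46147395-46147424, minus strand: tatgatgagatgAATAAAgctgtatgaaat
In Bub1b the CPE letters run directly into the hexamer, and a second copy starts 59 bases before the end. The exact letters of Bub1b, TTTTAT followed directly by AATAAA, were found in 42 of 19369 genes with a 3′ untranslated region of at least 100 bases (0.217%). Junctions of the other CPE and hexamer forms were not counted, so this share is set by the letters of Bub1b itself. CPE letters anywhere in the last 100 bases were found in 17.9% of these genes and in 20.4% of those with at least 1 CPM. The short Mad2l1 transcript carries its CPE letters after the hexamer, and its long transcript, with an untranslated region of 6802 bases, held neither motif at its end. The main transcripts of Mad1l1, Bub1, Bub3, Ttk and Mad2l1bp each held a hexamer and no CPE letters in this window. These are matches of letters only, and tail lengths were not measured.

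The promoters divided the genes differently. RefSeq promoters (GRCm38.p6, 250 bases before to 50 after the start site, 300 bases) were matched for all 7 genes and searched on both strands for 2 forms of the cell cycle homology region (CHR), TTTGAA and TTCGAA, and for CCAAT. The CHR is bound by the DREAM and MYB-MuvB complexes that time transcription in G2 and M phase of dividing cells. Bub1, Bub1b, Bub3 and Ttk held a CHR hexamer and CCAAT (4 of 7), while Mad1l1, Mad2l1 and Mad2l1bp held none of these motifs (3 of 7). Over 32851 promoters, 17.9% held TTTGAA, 1.56% TTCGAA, 19.2% either CHR hexamer, 37.4% CCAAT, and 7.52% a CHR hexamer together with CCAAT. The share of all promoters with none of these motifs was not counted, so the 3 of 7 are given as a description only. The promoters of the most and least abundant member are shown with those of Bub1 and Ttk, motif letters in capitals.
Bub1b, chr2:118597961-118598260, plus strand: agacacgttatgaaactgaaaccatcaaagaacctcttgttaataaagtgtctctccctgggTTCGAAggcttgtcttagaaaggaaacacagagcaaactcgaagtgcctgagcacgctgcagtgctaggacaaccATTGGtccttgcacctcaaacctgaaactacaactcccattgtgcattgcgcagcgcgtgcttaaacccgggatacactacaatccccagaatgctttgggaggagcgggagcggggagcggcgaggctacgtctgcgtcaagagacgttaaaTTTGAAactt
Bub1, chr2:127831810-127832109, minus strand: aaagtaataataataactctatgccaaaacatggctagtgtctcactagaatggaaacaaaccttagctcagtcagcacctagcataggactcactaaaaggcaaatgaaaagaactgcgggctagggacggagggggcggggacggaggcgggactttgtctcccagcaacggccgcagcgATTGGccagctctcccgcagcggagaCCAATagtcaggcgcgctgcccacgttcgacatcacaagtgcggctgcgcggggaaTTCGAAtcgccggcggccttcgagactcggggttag
Ttk, chr9:83834439-83834738, plus strand: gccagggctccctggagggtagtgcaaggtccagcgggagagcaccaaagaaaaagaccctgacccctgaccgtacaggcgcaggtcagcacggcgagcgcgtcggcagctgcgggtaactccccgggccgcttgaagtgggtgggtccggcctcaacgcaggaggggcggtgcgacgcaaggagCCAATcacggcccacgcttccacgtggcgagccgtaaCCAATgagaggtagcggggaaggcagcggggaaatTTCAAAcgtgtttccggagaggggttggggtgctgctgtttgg
Mad2l1bp, chr17:46153502-46153801, minus strand: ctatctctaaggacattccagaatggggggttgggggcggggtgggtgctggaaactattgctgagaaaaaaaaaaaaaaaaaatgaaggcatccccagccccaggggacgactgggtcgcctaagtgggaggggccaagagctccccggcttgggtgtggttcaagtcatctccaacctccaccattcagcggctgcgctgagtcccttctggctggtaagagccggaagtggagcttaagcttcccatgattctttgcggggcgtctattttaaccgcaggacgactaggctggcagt
Bub1b and Bub1 were the members with the rarer form TTCGAA, upstream of the start site in Bub1b and downstream of it in Bub1. Levels per length of the 4 genes with both motifs ran from 285 RPKM (Bub1b) to 12.1 (Bub3), and those of the 3 without from 45.3 (Mad1l1) to 7.44 (Mad2l1bp), by the deposited lengths.

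Bub1b (ENSMUSG00000040084, chr2:118598211-118641591, plus strand, GRCm38 as for all positions) encodes BUBR1, the checkpoint complex subunit that blocks the APC/C and that also stabilises microtubule attachment. Its level was 1294, 1205 and 1287 CPM in GFP High 1, 2 and 3, and 1351, 1140 and 1147 CPM in GFP Low 1, 2 and 3. RFP pools 1, 2 and 3 had 1136, 1168 and 1237 CPM. GFP Low 1 was the highest library and the groups overlapped. The lowest and highest library differed by a factor of 1.19, and the coefficient of variation (CV) over 9 libraries was 6.42%.

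Bub1 (ENSMUSG00000027379, chr2:127801122-127831865, minus strand) encodes the kinase that marks centromeric histone H2A and brings BUBR1 and MAD1 to the kinetochore. RFP pools 1, 2 and 3 had 88.0, 93.5 and 97.5 CPM of it. GFP High pools 1, 2 and 3 had 103, 80.4 and 88.8 CPM, and GFP Low pools 1, 2 and 3 had 87.2, 78.9 and 90.3 CPM. The extremes, GFP High 1 and GFP Low 2, lay outside the RFP range on either side, and the groups overlapped. Per length, Bub1b exceeded Bub1 by a factor of 12.7 to 15.8 in the 9 libraries, with means of 12.9 ± 0.221 for RFP, 14.3 ± 1.29 for GFP High and 14.5 ± 1.44 for GFP Low (SD, n = 3).

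Bub3 (ENSMUSG00000066979, chr7:131560222-131571895, plus strand) encodes the adaptor that binds phosphorylated KNL1 and carries BUB1 and BUBR1. It was tightly grouped in 8 libraries and low in one. GFP High pools 1, 2 and 3 had 92.8, 86.1 and 90.1 CPM, and RFP pools 1, 2 and 3 had 89.2, 88.5 and 91.3 CPM. In GFP Low 1, 2 and 3 it was 83.7, 56.6 and 87.1 CPM. GFP Low 2 thus held 0.637 of the median of the other 8 libraries, from 1474 reads. All 3 GFP Low libraries were below all 3 RFP libraries, which in GFP Low against RFP was also so, in one or the other direction, for 7.76% of all genes tested. The log2 fold change of Bub3 there was -0.24, with an SE of 0.14 and an edgeR adjusted p of 1.00, and without GFP Low 2 it was -0.06. Bub3 lies within the interval annotated to Fgfr2 on the opposite strand, without shared exon bases.

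Ttk (ENSMUSG00000038379, chr9:83834689-83872389, plus strand) encodes the kinase that starts the signal, and it was the steadiest member. Its level was 385.1, 335.0 and 371.0 CPM for RFP pools 1, 2 and 3. For GFP High pools 1, 2 and 3 it was 346.7, 377.4 and 361.4 CPM, and for GFP Low pools 1, 2 and 3 it was 373.5, 375.0 and 355.6 CPM. RFP held both its highest and its lowest library, so the other groups lay inside the RFP range. Its CV over the 9 libraries was 4.45%. Among 1055 genes with a mean level within a factor of 2, the median CV was 8.13%, and 4.17% of them varied less than Ttk.

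Mad1l1 (ENSMUSG00000029554, chr5:140008689-140321552, minus strand) encodes MAD1, the kinetochore receptor and template for MAD2. RFP pools 1, 2 and 3 lay close together at 153.7, 157.8 and 155.2 CPM. GFP Low pools 1, 2 and 3 stood at 161.9, 172.9 and 156.7 CPM, and GFP High pools 1, 2 and 3 at 174.1, 203.5 and 151.4 CPM. The CV was 1.34% among the RFP libraries and 14.8% among those of GFP High, which held both the highest and the lowest library. An antisense gene, Gm16121, shares 37 exon bases with Mad1l1 and had at most 2 counts in any library.

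Mad2l1 (ENSMUSG00000029910, chr6:66535390-66547220, plus strand) encodes MAD2, the subunit that captures CDC20. GFP High pools 1, 2 and 3 had 72.4, 87.2 and 96.4 CPM of it and GFP Low pools 1, 2 and 3 had 88.6, 82.3 and 83.2 CPM. RFP pools 1, 2 and 3 had 95.2, 91.9 and 80.9 CPM. GFP High again held both extremes and the groups overlapped. Per length the ratio of Mad2l1 to Mad1l1 was 0.2497 ± 0.0214 for RFP, 0.215 ± 0.0540 for GFP High and 0.225 ± 0.0163 for GFP Low (SD, n = 3), a ratio that rests on the deposited lengths. A processed pseudogene, Gm42430, is 95.4% identical to a Mad2l1 transcript over 454 bases and is not among the genes analysed here. No such copy of at least 95% identity over at least 200 bases was found for the other 6 members.

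**Figure D2:**
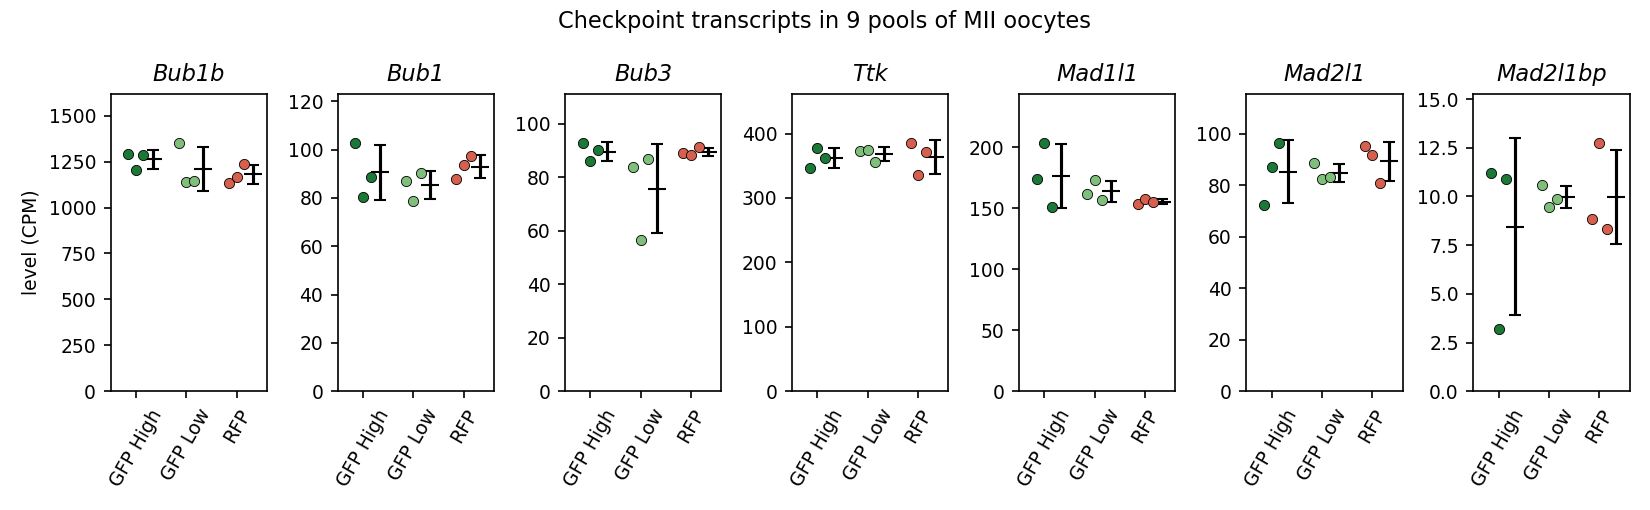
Level of each checkpoint gene in CPM, each panel on its own linear axis from 0, with 1 point per library and, beside each group, its mean and SD (n = 3). The groups overlap in every panel except GFP Low below RFP for Bub3; single low libraries are GFP Low 2 for Bub3 (56.6 CPM) and GFP High 2 for Mad2l1bp (3.20 CPM).

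Mad2l1bp (ENSMUSG00000034509, chr17:46147387-46153553, minus strand), the silencing factor, was the least abundant of the 7 genes by the deposited lengths and had the highest CV over the 9 libraries, 28.5%. Among 3178 genes with a mean level within a factor of 2 the median CV was 25.7%, and 60.5% of them varied less. GFP High pools 1, 2 and 3 had 11.2, 3.20 and 10.9 CPM, and GFP Low pools 1, 2 and 3 had 10.6, 9.48 and 9.86 CPM. RFP pools 1, 2 and 3 had 8.82, 12.7 and 8.32 CPM. GFP High 2 alone was low, with 79 reads against 206 to 309 in the other libraries. Its exact 95% Poisson interval, which covers counting error only, was 2.54 to 3.99 CPM and did not reach the interval of any other library, the lowest of which began at 7.26 CPM. Whether fewer eggs of that pool carried the transcript or all carried less cannot be told apart in pooled RNA. A level this far below the median of the other 8 libraries, 0.313 of it, was shared by 207 of 9215 genes with a median of at least 5 CPM there (2.25%). Those 9215 genes have no upper limit of level, and the share among genes near the level of Mad2l1bp was not counted. The part of that library's low complexity in the value was not tested.

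Trip13, which encodes the ATPase that works with the Mad2l1bp product, stood at the opposite extreme in the same pool. GFP High pools 1, 2 and 3 had 4.07, 10.99 and 1.92 CPM. GFP Low pools 1, 2 and 3 had 3.13, 2.69 and 2.06 CPM, and RFP pools 1, 2 and 3 had 3.57, 4.13 and 3.94 CPM. GFP High 2 was 3.28 times the median of the other 8 libraries, and the share of all genes that far above it was not counted. Per length, Trip13 over Mad2l1bp was 1.26 in GFP High 2 and 0.0646 to 0.173 in the others. This contrast was noticed after the values were seen and rests on 1 library of a pool of at most 16 eggs.

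**Figure D3:**
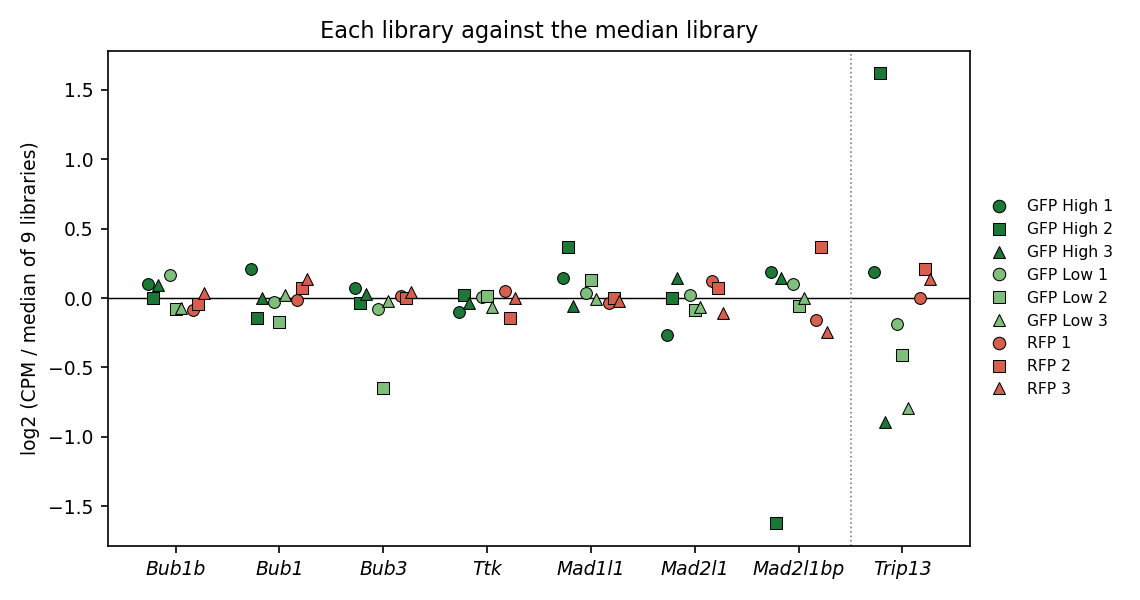
Level of each checkpoint gene, and of Trip13 right of the dotted line, in each library as log2 of its CPM over the median of the 9 libraries; colours give the group and symbols the replicate. Most points lie near 0, while GFP High 2 stands at 0.325 of the median for Mad2l1bp and GFP Low 2 at 0.639 for Bub3.

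No checkpoint gene differed between groups beyond the spread between pools. A gene was called at an adjusted p under 0.05 in edgeR's quasi-likelihood test, with Benjamini-Hochberg adjustment over all genes tested. In GFP High against RFP, the brightest GFP eggs beside the RFP eggs, 0 of 7 members were called, where 0.0135% of all genes were. DESeq2 also called 0, beside 0.0696% of all genes, and 0 members had an unadjusted p under 0.05 in edgeR (4.09% of all genes) or DESeq2 (4.79%). In 0 of 7 did the replicates of the groups not overlap, beside 12.1% of all genes. The largest positive value was that of Mad1l1, 0.20 on the log2 scale with an SE of 0.12, and Bub1b was at 0.11 with an SE of 0.07, both at an edgeR adjusted p of 0.997. The median over the members was 0.01, and over all genes -0.01.

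In GFP Low against RFP edgeR called 0 of 7 members, where it called 0.0197% of all genes, and DESeq2 called 0, beside 0.0661%. Again 0 members had an unadjusted p under 0.05 in edgeR (2.62% of all genes) or DESeq2 (2.01%). Bub3 was the only member without overlap, as given above. The log2 fold change of Bub1 was -0.12, with an SE of 0.10 and an edgeR adjusted p of 1.00, and the median over the members was 0.01.

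In GFP High against GFP Low edgeR called 0 of 7 members and 0% of all genes, and DESeq2 called 0 of 7 and 0.0192% of all genes. Members with an unadjusted p under 0.05 numbered 0 in edgeR (3.77% of all genes) and 0 in DESeq2 (4.59%), and 0 of 7 were without overlap (11.6%). For Bub3 the log2 fold change was 0.25, with an SE of 0.16 and an edgeR adjusted p of 0.998, and it was 0.07 without GFP Low 2. A test for any difference among the 3 groups, on all 9 libraries, called 0 of 7 members in edgeR (0.0126% of all genes) and 0 in DESeq2 (0.568%). The smallest unadjusted p in that edgeR test was 0.196, for Bub3, beside 4.65% of all genes under 0.05. In the authors' deposited table the smallest adjusted p of a member was 0.795 for Mad1l1 in GFP High against RFP.

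The intervals of these differences were narrow for 6 members and wide for Mad2l1bp. The 95% interval of the fold for Ttk was 0.876 to 1.15 in GFP High against RFP and 0.904 to 1.14 in GFP Low against RFP, and that for Bub1b was 0.968 to 1.21 and 0.911 to 1.17. For Mad2l1 it was 0.778 to 1.198 and 0.820 to 1.10, and for Bub1 0.808 to 1.201 and 0.796 to 1.07. Mad1l1 had 0.950 to 1.38 and 0.937 to 1.19. For Bub3 it was 0.684 to 1.05 in GFP Low against RFP and, the widest on the log2 scale among these 6 genes, 0.928 to 1.53 in GFP High against GFP Low. A change of 2-fold therefore lay outside the interval for these 6 genes in all 3 comparisons. For Mad2l1bp the interval was 0.428 to 1.72 in GFP High against RFP, so the interval took in a level lower by more than 2-fold. Its log2 fold change there was -0.22, with an SE of 0.45 and an edgeR adjusted p of 0.997, and it was 0.16 without GFP High 2.

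**Figure D4:**
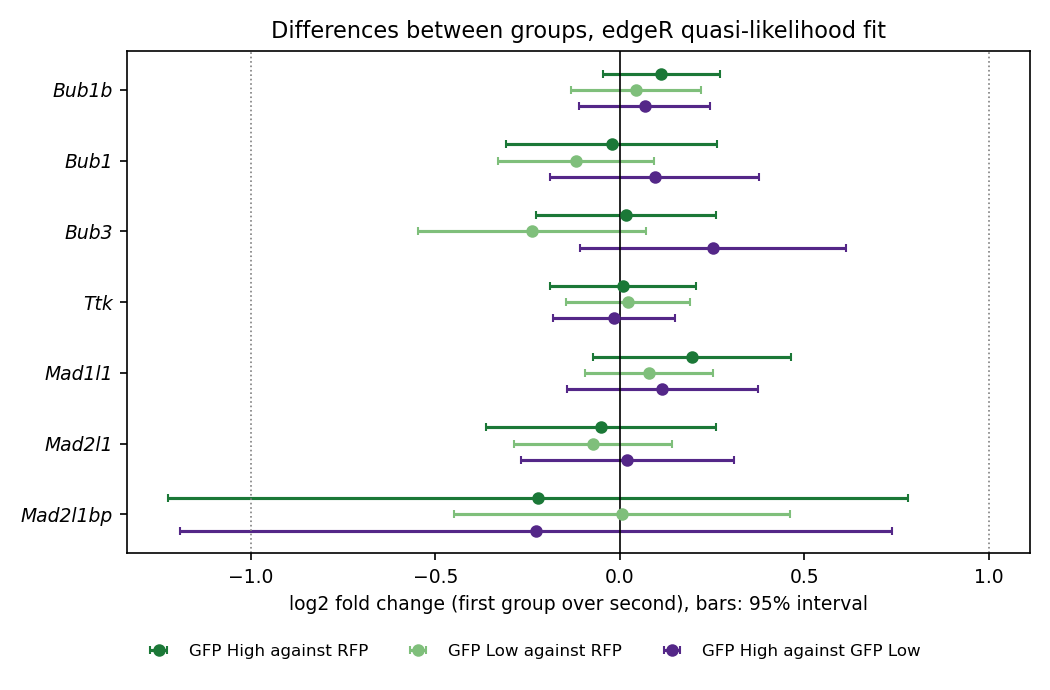
Log2 fold change of each checkpoint gene in the 3 comparisons (points) with its 95% interval from the edgeR fit (bars); dotted lines mark a change of 2-fold. All intervals include 0, and only those of Mad2l1bp in the 2 comparisons with GFP High pass a dotted line.

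The spread between replicates, as CV, was largest in GFP High for 4 members, was largest in GFP Low for 2 and was largest in RFP for Ttk. Across libraries the 7 genes showed no common direction. Over their 21 pairs, Pearson's r of log2 CPM across the 9 libraries ran from -0.776 (Mad1l1 with Mad2l1bp) to 0.671 (Bub1 with Bub3), with a median of -0.02, and 10 pairs were above 0. By rank, Spearman's rho was -0.0667 for Mad1l1 with Mad2l1bp and 0.85 for Bub1 with Bub3. These values are given as a description, since the libraries of a group and the depth of a library are shared by all 7 genes.

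For each member the gene with the most similar pattern over the 9 libraries was taken from the 7709 genes with a mean of at least 10 CPM, so that a high r is given by the choice. For Mad2l1bp it was Brd3 (r = 0.976, Spearman's rho = 0.950), which ranged from 43.5 to 79.3 CPM, and for Mad1l1 Serpinc1 (r = 0.951, rho = 0.733). The best matches of Bub1, Bub3, Ttk and Mad2l1 were Ints10, Abhd17c, Gpr158 and the pseudogene Gm44133, with r from 0.931 to 0.941. For Bub1b no gene exceeded 0.9, and the best was Itga9 (r = 0.877, rho = 0.750). For Mad2l1bp 88 genes exceeded 0.9. Its pattern holds a single outlying library, GFP High 2, at 0.325 of the median beside 0.843 to 1.29 in the others. The part of that library in these r was not tested.

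The genes the checkpoint acts through were taken from lists of 22 genes of the kinetochore and of checkpoint recruitment and silencing (Trip13 among them), 18 genes of the APC/C and its activators, and 7 of APC/C substrates and inhibitors. All were detected, and neither edgeR nor DESeq2 called any in the 3 comparisons. In GFP High against RFP 1, 2 and 1 of these lists' genes had an unadjusted edgeR p under 0.05, in GFP Low against RFP 0, 0 and 0, and in GFP High against GFP Low 0, 1 and 1. The shares of all genes under that p were 4.09%, 2.62% and 3.77% in the 3 comparisons. DESeq2 gave 1, 2 and 1, then 0, 0 and 0, then 1, 2 and 1, beside 4.79%, 2.01% and 4.59% of all genes. The median log2 fold changes in GFP High against RFP were -0.01, 0.14 and 0.02 for the 3 lists, beside -0.01 over all genes. The 10 oocyte markers had a median of 0.20 there, with 9 of 10 above 0 and 4 without overlap. In the APC/C list 14 of 18 were above 0 and 3 were without overlap, all higher in GFP High. In the kinetochore list 9 of 22 were above 0, and 1 higher and 2 lower were without overlap. Among substrates and inhibitors 4 of 7 were above 0 and 1 was without overlap. Over all genes 12.1% were without overlap in this comparison. The part of the oocyte markers in these values was not tested.

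Cdc20, the APC/C activator that the checkpoint complex captures, was ordered by group without overlap. GFP High pools 1, 2 and 3 stood at 47.1, 47.3 and 51.1 CPM, RFP pools 1, 2 and 3 at 43.5, 46.8 and 44.5 CPM, and GFP Low pools 1, 2 and 3 at 41.8, 36.4 and 38.3 CPM. Each GFP High library was above each RFP library and each RFP library above each GFP Low library. Groups without overlap, in one or the other direction, made up 12.1% of all genes for GFP High with RFP, 7.76% for GFP Low with RFP and 11.6% for the GFP groups with each other. The fold changes did not pass the threshold. GFP High over GFP Low was 0.33 on the log2 scale with an SE of 0.14 (edgeR adjusted p = 0.998), and GFP Low over RFP was -0.21 with an SE of 0.12 (edgeR adjusted p = 1.00). GFP High over RFP was 0.13 with an SE of 0.14 (edgeR adjusted p = 0.997).

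Knl1, the scaffold for BUB3, had 64.8 ± 6.25 CPM for RFP, 68.9 ± 3.28 for GFP High and 60.6 ± 6.13 for GFP Low (SD, n = 3). Fbxo43, which encodes the APC/C inhibitor EMI2 of metaphase II arrest, had 108.5 ± 5.92, 109.9 ± 30.8 and 104.9 ± 12.04 CPM in the same order. Per length, the highest and lowest of the kinetochore list were Incenp (239.5 RPKM), a subunit of the chromosomal passenger complex, and Nsl1 (0.638), of the MIS12 complex. In the APC/C list these were Ube2c (59.6 RPKM), its initiating E2 enzyme, and Cdc23 (1.05), a core subunit, and among substrates and inhibitors Ccnb1 (87.4), cyclin B1, and Espl1 (13.5), separase. Trip13, at 1.17 RPKM, was below all 7 checkpoint genes.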

How the data were processed

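Per the labels' protocols, poly-A RNA of pooled eggs was selected on poly-dT beads, copied from random hexamers and read as paired ends. The submitters' processing notes name fastp, HISAT2 2.0.5, featureCounts 1.5.0-p3, DESeq2 1.20.0 and build mm10, and the strand setting of counting is not given in the sources used here. The authors deposited 3 tables, 1 per pair of groups, with raw counts, a normalised signal, FPKM values, a gene length in bases, and, for each gene, the p-value raw and adjusted beside a log2 fold change. The deposited counts were joined by gene identifier into 30153 genes by 9 libraries, with 0 for 178 genes that a table lacked, no member among them. The deposited normalised signal and FPKM entered no test.

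CPM values were scaled by TMM over all 9 libraries. Each comparison was fitted on the 6 libraries of its groups with edgeR 4.0.16 in R 4.3.3 (filterByExpr, TMM, glmQLFit, glmQLFTest, no covariate), with adjustment over all genes tested. Standard errors and 95% intervals come from the quasi-likelihood F statistic. DESeq2 1.42.0, other scaling, filter, samples and a replicate block were alternatives. The fits were tested on simulated data. Member and pathway lists were chosen with earlier results of these data known. All 7 members were named in each comparison. Of the pathway lists, every gene past the threshold, Knl1, Trip13, Cdc20, Fbxo43 and each list's highest and lowest gene per length were to be named. The 7 members had the same coordinates in GENCODE M21.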

Additional observations from a re-analysis of the deposited data

How the results depend on the processing

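The count of checkpoint genes past the threshold stayed at 0 in every alternative run for the 3 comparisons and the 3-group test. These were DESeq2, its size factors in edgeR, no filter on low counts, all 9 libraries in 1 fit (for the pairwise comparisons), the replicate block, each library left out (range 0 to 0) and, for the pairwise comparisons and added after seeing the data, bias-adjusted deviances. No member fold change passed the threshold in any of them. Without a filter, Ttk in GFP High against RFP changed sign to -0.0045. For libraries that carry the same replicate number, deviations from the group means correlated at -0.15 to 0.15. Of 6 libraries per comparison 0, 2 and 4 correlated best with their own number (GFP High against RFP, GFP Low against RFP, GFP High against GFP Low). With 3 libraries per group, these values cannot decide whether libraries of the same number are paired. The replicate block gave 0 members in each test and moved Mad2l1bp most, to a log2 fold change of -0.41 in GFP High against GFP Low.

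Some signs changed when 1 library was left out. In GFP High against RFP the log2 fold change then ran from -0.15 to 0.0475 for Mad2l1, from -0.13 to 0.0527 for Bub1, from -0.017 to 0.0402 for Bub3, from -0.0487 to 0.0415 for Ttk and from -0.49 to 0.16 for Mad2l1bp. In GFP Low against RFP it ran from -0.043 to 0.0866 for Bub1b, from -0.0324 to 0.0593 for Ttk and from -0.11 to 0.22 for Mad2l1bp. In GFP High against GFP Low it ran from -0.081 to 0.12 for Mad2l1, from -0.0039 to 0.21 for Mad1l1, from -0.0131 to 0.17 for Bub1, from -0.0502 to 0.0073 for Ttk and from -0.50 to 0.16 for Mad2l1bp. The positive ends for Mad2l1bp in both comparisons with GFP High arose without GFP High 2. The cause was not tested. Mad2l1bp had the lowest counts of the 7 genes, 79 to 309 reads per library. Its standard error was 0.21 in GFP Low against RFP, and 0.45 and 0.43 in the comparisons of GFP High with RFP and with GFP Low.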
